A study of Mus musculus with 48 samples.

Results

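The levels of 10 marker genes of the interneurons of the striatum were followed in each mouse of a congenic line and of its wild-type controls. The genes were chosen by symbol, with earlier results of these data known. They are 10 of the 23420 rows of the deposited gene table: Chat, Slc5a7 and Slc18a3 for cholinergic interneurons, Pvalb and Kcnc1 for fast-spiking interneurons, Sst, Npy and Nos1 for somatostatin interneurons, Calb2 for calretinin interneurons, and Vip. RNA was measured in 16 mice aged about 50 days, 8 of a line named 112kb congenic, which carries a 112 kb congenic segment, and 8 wild-type C57BL/6J littermates. Each genotype held 4 females and 4 males. For every mouse, 3 mm punches of the left and right striatum went into a single pool, and its library was run on 3 lanes, whose counts were summed, so n counts mice. The labels name no treatment, and the sources used here give neither the donor strain nor the zygosity of the segment. Congenic mice are named C1 to C8 and wild-type mice W1 to W8, numbered in the order of their listing, which pairs none of them.

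The striatum is the input nucleus of the basal ganglia and is made up mostly of GABA-releasing medium spiny projection neurons. Its interneurons are a small minority. Cholinergic interneurons fire tonically and release acetylcholine onto muscarinic and nicotinic receptors, fast-spiking parvalbumin cells give feed-forward inhibition to the projection neurons, and cells that hold somatostatin, neuropeptide Y and nitric oxide synthase inhibit their dendrites. Calretinin cells form a further class, and Vip marks a class of interneurons that is best known from the cortex. Most of these genes are not restricted to striatal interneurons: Kcnc1, Npy and Nos1 are also transcribed in other brain cells, Pvalb in pallidal neurons, and Calb2 and Vip in regions that border the striatum.

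Gene counts per mouse totalled 73125051 to 81994255. Levels are given on the counts-per-million scale (CPM) of these totals. The lowest count of any of the 10 genes in any mouse was 67, for Vip, and counting error is largest for that gene. The projection neuron markers chosen for this tissue (12 genes, among them Ppp1r1b, Drd1a, Adora2a and Penk) summed to 9223 to 11490 CPM over the mice, and each was detected in every mouse. Wild-type mouse W8 is recorded as female but held 2.73 CPM of Xist, where the other 7 females held 958 to 1535 CPM. It also held 7 counts of Y-linked genes, where males held at least 13555, so its library went against a female label in Xist only. For the main model, the sex differences and the fits within females are given with and without it. Values of r in females include it. Congenic mouse C2 stood apart in cytosolic ribosomal protein genes, with a summed level of 21480 CPM where wild-type mice had 14150 to 16250 CPM. In bulk tissue, fewer cells of a type and less RNA per cell cannot be told apart.

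The series set the congenic segment against the wild-type chromosome. Between the genotypes, 0 of the 10 interneuron markers passed the test, and for every one of them the range of the congenic mice overlapped the range of the wild-type mice. Vip had the largest difference, with a congenic mean of 1.29 ± 0.585 CPM against a wild-type mean of 1.91 ± 0.660 CPM (SD, n = 8 per genotype). Chat, Slc5a7, Slc18a3, Kcnc1, Sst, Npy and Nos1 differed by 0.03 to 0.13 on the log2 scale, each lower in congenic mice. Pvalb and Calb2 had higher means in congenic mice, and each of these differences took the opposite sign when a single congenic mouse was left out. Genes were tested with the quasi-likelihood test of edgeR with sex in the model and p values adjusted by Benjamini-Hochberg over 16716 genes. The adjusted p was 0.999 for each of the 10 genes. The share of all tested genes called was 0%, with 256 genes at an unadjusted p under 0.05, and among the 10 markers this was Vip alone. The other tools run also called 0 genes: DESeq2 had 268 under that unadjusted p and limma-voom 288. The median log2 fold change of the 10 markers was -0.05, against 0.00 over all genes tested.

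**Figure D1:**
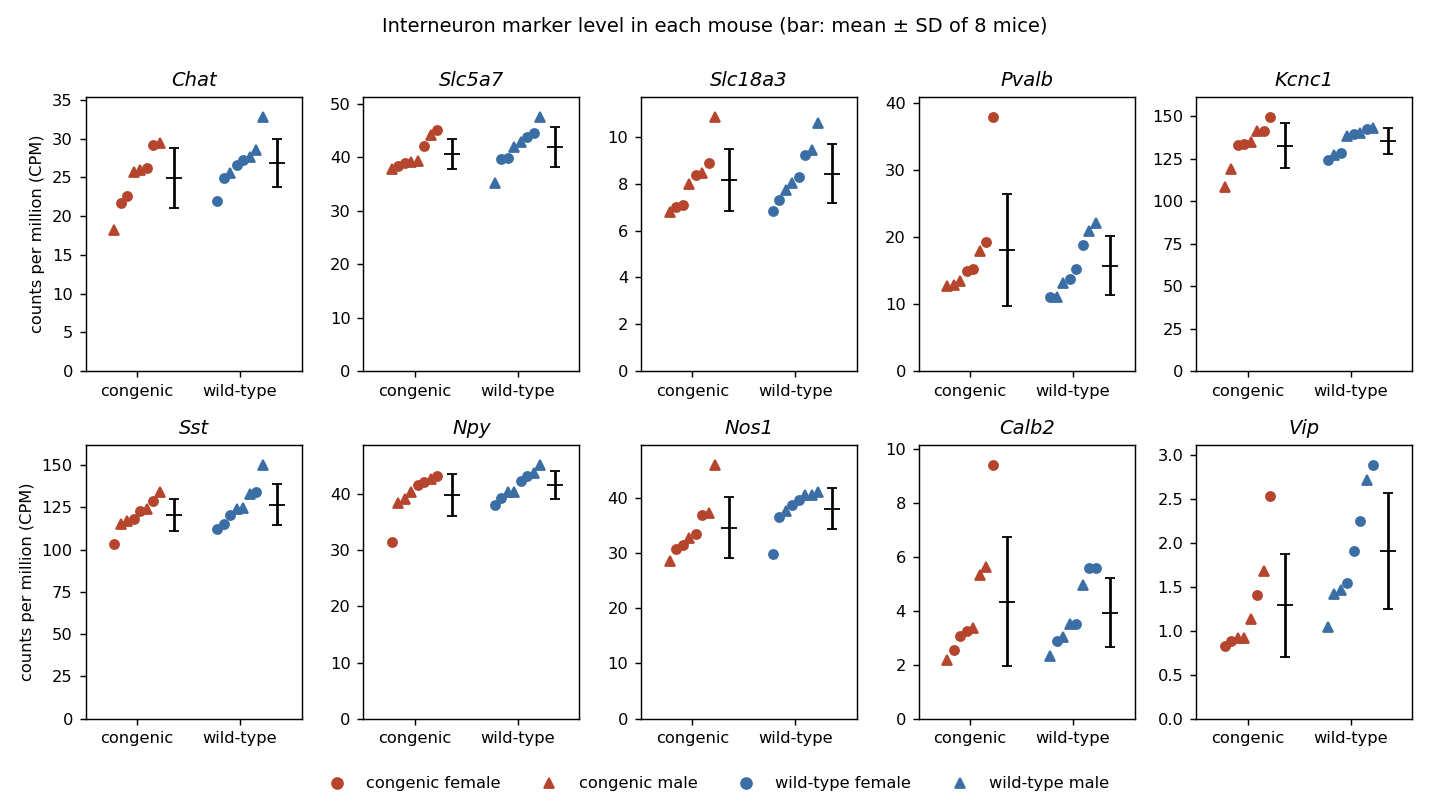
Level of each of the 10 markers in CPM (vertical axis, from 0) in congenic (red) and wild-type (blue) mice, with circles for females, triangles for males and black bars for the mean ± SD of 8 mice. The groups overlap in all 10 panels, a single congenic female stands above the rest in Pvalb (37.9 CPM) and in Calb2 (9.43 CPM), and 4 congenic mice lie below every wild-type mouse in Vip.

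The 3 cholinergic genes were close to each other between genotypes. Chat encodes choline acetyltransferase, the enzyme that makes acetylcholine, and lies on chromosome 14 at 33221389 to 33279095 (NCBIM37, minus strand). It had 18.1 CPM in the lowest congenic mouse (C2), a congenic median of 25.9 and a highest value of 29.5 CPM (C1). In wild-type mice the lowest was 21.9 CPM (W8), the median 26.9 and the highest 32.7 CPM (W3). Thus 2 congenic mice lay below every wild-type mouse and the other 6 lay within the wild-type range. The log2 fold change of Chat was -0.11 (SE 0.10, 95% interval -0.31 to 0.10). Slc18a3 encodes the vesicular transporter that loads acetylcholine into synaptic vesicles. Its gene lies within the span of Chat in RefSeq (GRCm38.p6), and the sources used here do not say how reads were divided between the overlapping genes. Slc18a3 ranged from 6.78 (C2) over a median of 8.18 to 10.8 CPM (C1) in congenic mice and from 6.85 (W7) over 8.17 to 10.6 CPM (W3) in wild-type mice. The ranges were almost the same, and the log2 fold change was -0.04 (SE 0.10, 95% interval -0.25 to 0.17). Slc5a7, the high-affinity choline transporter of the terminal, lies on chromosome 17 at 54412919 to 54438359 (NCBIM37). Its highest congenic value was 1.19 times its lowest, the smallest such ratio of the 3 genes, with values from 37.9 (C5) over 39.2 to 45.1 CPM (C7), inside the wild-type range of 35.2 (W5) over 42.4 to 47.4 CPM (W3). Its log2 fold change was -0.04 (SE 0.06, 95% interval -0.16 to 0.08).

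The promoters of Chat and Slc18a3 are shown because both genes belong to a single locus and their levels moved together across mice, as given further on. The sequences are the 150 bases before each start site, read 5′ to 3′ on the strand of the gene, from RefSeq on GRCm38.p6, at chr14:32465910-32466059 for Chat and chr14:32464851-32465000 for Slc18a3. Capitals mark the core TGACG of the cAMP response element (CRE), or CGTCA where it lies on the other strand.
Chat: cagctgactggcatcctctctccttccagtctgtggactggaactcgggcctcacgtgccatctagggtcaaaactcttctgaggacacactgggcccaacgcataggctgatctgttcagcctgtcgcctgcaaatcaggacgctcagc
Slc18a3: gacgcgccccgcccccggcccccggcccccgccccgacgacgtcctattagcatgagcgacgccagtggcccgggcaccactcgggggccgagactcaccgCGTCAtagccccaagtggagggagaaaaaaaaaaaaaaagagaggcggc
The window of Slc18a3 held 1 CRE core, 49 bases before the start, and 2 matches to the GC box GGGCGG, while that of Chat held no match to the CRE core, the GC box or TATAAA. The start shown for Chat is that of the RefSeq table. In the exon table the most upstream bin of Chat (bin 19, noncoding) held 55 counts over all mice, where the next (bin 18) held 3033. Bin 19 took a mean of 0.0771% of the exon counts of Chat in congenic mice and 0.124% in wild-type mice. Which bin the RefSeq start falls in was not tested, since the builds differ. Windows of the same length were searched on both strands for 32851 promoters in the RefSeq table, of which 13.3% held the CRE core, 28.6% the GC box and 7.57% TATAAA. A match is a run of letters only.

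Among the fast-spiking markers, Pvalb varied widely in congenic mice (coefficient of variation 46.4%) and Kcnc1 little (9.91%). Pvalb encodes parvalbumin, a calcium buffer, and lies on chromosome 15 at 78021544 to 78036830 (NCBIM37). Congenic mice ranged from 12.6 (C1) over a median of 15.1 to 37.9 CPM, and wild-type mice from 11.005 (W6) over 14.5 to 22.1 CPM (W1). The value of 37.9 CPM belonged to female C7, and the other 7 congenic mice lay within the wild-type range. The log2 fold change of Pvalb was 0.17 (SE 0.25, 95% interval -0.36 to 0.70), and without mouse C7 it was -0.05. Kcnc1 encodes the Kv3.1 potassium channel that allows fast firing, and lies on chromosome 7 at 53651867 to 53693745 (NCBIM37). It ranged from 108 (C2) over 134 to 149 CPM (C3) in congenic mice and from 124 (W6) over 139 to 143 CPM (W4) in wild-type mice, so that both the lowest and the highest of the 16 values were congenic. Its log2 fold change was -0.03 (SE 0.06, 95% interval -0.15 to 0.09). In mouse C7, Kcnc1 was at 141 CPM, below the highest wild-type value. The summed level of 10 other fast-spiking markers (Kcnc2, Erbb4, Lhx6 and others) was 234 CPM in that mouse. It lay at 198 to 246 CPM in congenic mice and 213 to 253 CPM in wild-type mice.

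The genes of somatostatin interneurons had the narrowest intervals of the 10, apart from Nos1. Sst encodes the inhibitory peptide somatostatin and lies on chromosome 16 at 23889667 to 23890930 (NCBIM37). It ranged from 103 (C7) over a median of 120 to 134 CPM (C5) in congenic mice and from 112 (W8) over 124 to 150.2 CPM (W5) in wild-type mice, and its log2 fold change was -0.07 (SE 0.05, 95% interval -0.18 to 0.04). A single congenic mouse lay below the wild-type range. Npy encodes neuropeptide Y and lies on chromosome 6 at 49772709 to 49779506 (NCBIM37). Its congenic values ran from 31.6 (C7) over 41.1 to 43.2 CPM (C8), and its wild-type values from 38.0 (W7) over 41.4 to 45.2 CPM (W3). Mouse C7 was again the only congenic mouse below the wild-type range. The log2 fold change of Npy was -0.06 (SE 0.05, 95% interval -0.17 to 0.06). Nos1 encodes neuronal nitric oxide synthase and lies on chromosome 5 at 118231041 to 118408849 (NCBIM37). It ranged from 28.5 (C2) over 33.1 to 45.9 CPM (C1) in congenic mice and from 29.8 (W8) over 39.1 to 41.0 CPM (W3) in wild-type mice. The congenic median was the lower one, but the highest of all 16 values was congenic as well as the lowest. The log2 fold change of Nos1 was -0.13 (SE 0.08, 95% interval -0.31 to 0.04, unadjusted p = 0.131 in edgeR). Nos1 reached an unadjusted p of 0.0125 without mouse C1 and 0.0403 without mouse W8 (adjusted p = 0.977 and 0.986).

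The promoters of Sst and Npy are printed as the pair of peptide genes of these cells, again with the 150 bases before the start site from RefSeq on GRCm38.p6, at chr16:23890845-23890994 on the minus strand for Sst and chr6:49822560-49822709 on the plus strand for Npy. Capitals mark CRE cores as above. In Sst they join into the full palindrome TGACGTCA.
Sst: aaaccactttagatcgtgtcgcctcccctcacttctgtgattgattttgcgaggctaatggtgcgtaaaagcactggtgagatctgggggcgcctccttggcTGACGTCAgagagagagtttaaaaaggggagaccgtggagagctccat
Npy: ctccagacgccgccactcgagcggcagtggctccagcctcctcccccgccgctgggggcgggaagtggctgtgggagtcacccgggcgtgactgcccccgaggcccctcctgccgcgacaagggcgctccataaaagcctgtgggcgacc
The Sst window held the full CRE 48 bases before the start, a textbook element of this gene through which cAMP signalling acts. The full CRE, which holds a core on each strand, was present in 1.36% of the 32851 promoter windows. The Npy window held a GC box 95 bases before the start and no CRE core.

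Calb2 and Vip had the lowest counts of the 10 genes and, with Pvalb, the widest intervals. Calb2 encodes calretinin, a calcium buffer, and lies on chromosome 8 at 112661402 to 112692110 (NCBIM37). Congenic mice ranged from 2.19 (C1) over a median of 3.31 to 9.43 CPM (C8), and wild-type mice from 2.31 (W3) over 3.52 to 5.60 CPM (W2). Congenic female C8 stood far above the other 15 mice, of which the highest had 5.62 CPM (C5, congenic). The log2 fold change of Calb2 was 0.15 (SE 0.29, 95% interval -0.47 to 0.77), and without mouse C8 it was -0.12.

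Vip encodes vasoactive intestinal peptide and lies on chromosome 10 at 4698927 to 4707323 (NCBIM37). Congenic mice ranged from 0.825 (C7) over a median of 1.03 to 2.53 CPM (C8), and wild-type mice from 1.05 (W1) over 1.72 to 2.89 CPM (W7). Of the congenic mice, 4 lay below every wild-type mouse and 0 above, and the counts behind these values were 67 to 236 per mouse. The log2 fold change of Vip was -0.56 (SE 0.24, 95% interval -1.05 to -0.06, unadjusted p = 0.0293 and adjusted p = 0.999 in edgeR). The exact permutation test within sex, two-sided over 4900 arrangements, gave p = 0.0473 for a difference of -0.58 in mean log2 CPM. It was run for each of the 10 markers with no adjustment, and the others had p from 0.157 (Nos1) to 0.857 (Calb2). Left-out single mice moved the fold change between -0.41 (without wild-type W5) and -0.75 (without congenic C8), with the same sign throughout and an unadjusted p under 0.05 in 10 of the 16 fits. Markers of cortical excitatory neurons moved with Vip. Of 12 such markers, 11 had a negative log2 fold change, with a median of -0.39 and 0 called. Their summed level was 63.25 to 313 CPM in congenic mice (median 111) and 100.2 to 278 CPM in wild-type mice (median 209), and the only one at 0 in any mouse was Neurod1. With the cortical score of each mouse in the model, the log2 fold change of Vip was -0.24 (unadjusted p = 0.0889 in edgeR). The part of cortical tissue in the genotype difference of Vip was not tested, and the cortical markers themselves were lower in congenic mice.

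The promoter of Vip is shown as that of the marker with the largest genotype difference, at chr10:5639068-5639217 on the plus strand of GRCm38.p6 from RefSeq, with the CRE core in capitals.
Vip: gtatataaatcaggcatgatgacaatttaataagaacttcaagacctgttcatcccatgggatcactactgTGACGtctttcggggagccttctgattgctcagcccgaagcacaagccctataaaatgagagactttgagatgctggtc
The core lay 79 bases before the start. TATAAA matched 147 and 30 bases before it.

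**Figure D2:**
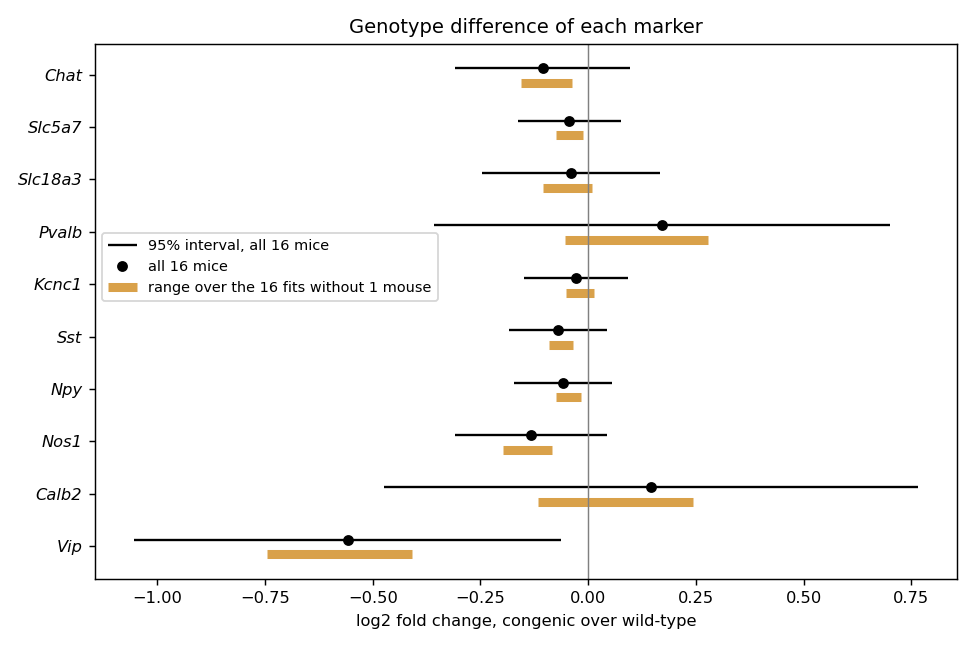
Log2 fold change of congenic over wild-type mice for each marker (horizontal axis), with the estimate and 95% interval of all 16 mice in black and the range over the 16 fits that each leave out 1 mouse in orange. Vip is the only marker whose interval (-1.05 to -0.06) does not reach 0, and the orange range crosses 0 for Slc18a3, Pvalb, Kcnc1 and Calb2.

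The differences of single genes were traced to single mice by leaving each out in turn. Mouse C2 was the most influential for Chat, whose log2 fold change went from -0.11 to -0.04 without it, and for Kcnc1, which went from -0.03 to 0.01. That mouse lay below the mean of the 16 mice in all 10 markers and was the lowest of all in Chat, Slc18a3, Kcnc1 and Nos1 by CPM. Mouse C2 also had the highest ribosomal protein score (0.42, where the next, C5, had 0.11). With that score as a covariate, added after seeing the data, the log2 fold change of Chat was -0.01. The part of the ribosomal level in these markers was not tested, since the score set mouse C2 apart more than any other. Mouse C7 was the lowest of all 16 in Sst, Npy and Vip and the highest in Pvalb. It was the most influential mouse for Npy, whose log2 fold change was -0.02 without it. Mouse C1, the highest in Nos1 and Slc18a3, was the most influential for both: without it they had log2 fold changes of -0.20 and -0.10. Among wild-type mice, W5 decided most for Sst (-0.04 without it) and W3 for Slc5a7 (-0.01 without it). None of the 16 fits that left out 1 mouse called any of the 10 genes by genotype.

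**Figure D3:**
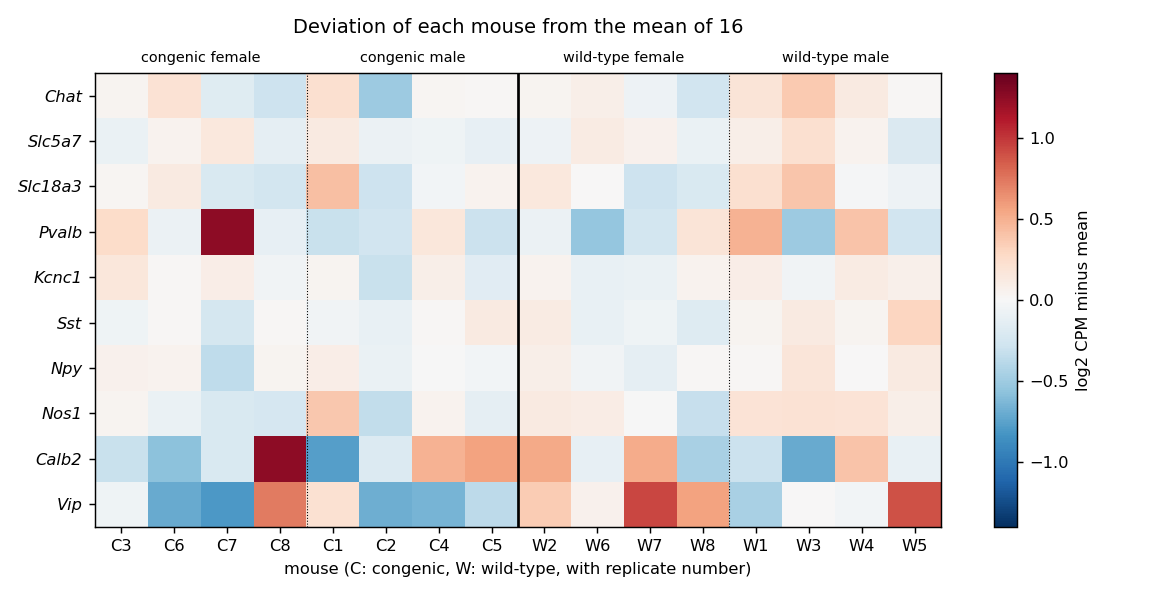
Deviation of each mouse (columns, by genotype and sex) from the mean of the 16 mice for each marker (rows), in log2 CPM after TMM scaling, red for higher and blue for lower. Mouse C2 is below the mean in all 10 rows, and the darkest red cells are Pvalb in mouse C7 and Calb2 in mouse C8.

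The spread between mice differed widely among the markers. Across all 16 mice the coefficient of variation was 45.1% for Calb2, 42.7% for Vip and 38.7% for Pvalb, 13.3 to 14.97% for Chat, Slc18a3 and Nos1, and 7.80 to 8.92% for Slc5a7, Kcnc1, Sst and Npy. The fitted dispersion of edgeR placed Calb2 at the 97.7th percentile of all tested genes, Pvalb at the 95.8th and Vip at the 95.1st, and the other 7 between 41.4 and 73.3. The 95% intervals of Slc5a7, Kcnc1, Sst and Npy all lay between -0.18 and 0.09 on the log2 scale, so that larger differences between the genotypes lay outside them. Those of Calb2, Pvalb and Vip were the widest of the 10.

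Within each sex and for the difference of the genotype effect between sexes, 0 of the 10 markers passed in edgeR, where 0% of genes passed in females, 0% in males and 0% for the interaction. Unadjusted p values under 0.05 numbered 366, 491 and 698 genes, with none of the 10 markers among them. Pvalb had the widest contrast: the log2 fold change was 0.59 in females (95% interval -0.08 to 1.27) and -0.26 in males (95% interval -0.94 to 0.42), with an interaction of -0.85 (SE 0.44, adjusted p = 0.967). The 4 congenic females ranged from 14.9 to 37.9 CPM of Pvalb, with the high value again from mouse C7. Without that mouse the fold change of Pvalb was 0.17 in females and the interaction -0.43, and without mouse W8 they were 0.72 and -0.97 (adjusted p = 0.9985 and 0.9999 in edgeR). Kcnc1 had 0.08 in females and -0.14 in males, where mouse C2 is a congenic male (interaction adjusted p = 0.967). Vip was lower in congenic mice of both sexes, with -0.59 (95% interval -1.31 to 0.13) in females and -0.52 (95% interval -1.26 to 0.21) in males. Leaving out congenic female C8 raised the calls in females from 0 to 17 genes in edgeR, all lower in congenic mice and none of them among the 10 markers. In females without mouse W8, Vip had -0.58 and Kcnc1 0.10. In the fit without C8, Vip had -1.02 (adjusted p = 0.321) and Pvalb 0.74 (adjusted p = 0.629).

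Between the sexes, 0 of the 10 markers passed, where 0.138% of genes (23 of 16716) did in edgeR. Sst averaged 128 ± 11.2 CPM in the males against 119 ± 9.74 CPM in the females (SD, n = 8 per sex). That was a log2 difference, male over female, of 0.12 (SE 0.05, unadjusted p = 0.0336, adjusted p = 0.306 in edgeR). Nos1 had 0.16 (SE 0.08) and Slc18a3 0.18 (SE 0.10), both higher in males and neither past the threshold. With the ribosomal protein score as a covariate, added after seeing the data, 286 of 16716 genes passed in edgeR. Nos1 had 0.27 and was among them (adjusted p = 0.0136), and Slc18a3 had 0.26 (adjusted p = 0.0929). That covariate was not fitted without mouse W8, the lowest wild-type mouse in Nos1. Without mouse W8 and without the covariate, 15 genes passed. The value of Sst was then 0.10 (unadjusted p = 0.0847 in edgeR), that of Nos1 0.11 and that of Slc18a3 0.15, and 0 of the 10 markers passed. By the mouse numbers in the sample titles, 6 of the 8 females come after all males, so sex and any difference that follows mouse number cannot be told apart.

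Exon use, the question named in the title of the series, was compared between genotypes for the 9 markers whose Ensembl genes are in the exon table. Exon bins are pieces of the merged exons of a gene, cut wherever its transcripts begin or end an exon, and each was set against the rest of its gene with edgeR's diffSpliceDGE. Of 102 bins tested in these 9 genes, 0 passed, and 0 had an unadjusted p under 0.05. None of the 9 genes passed by the Simes method, where 0.00672% of 14875 genes (1 gene) did, with 73 genes at an unadjusted p under 0.05. The bin of smallest p lay in Nos1, bin 42, a noncoding stretch of 289 bases at 118402893 to 118403181 on chromosome 5 (NCBIM37). It took 0.192 ± 0.0467% of the exon counts of Nos1 in congenic against 0.129 ± 0.0596% in wild-type mice (SD, n = 8 per genotype). That rested on 217 counts over all mice, with a log2 difference of 0.58 (unadjusted p = 0.0527, adjusted p = 1). Bin 1 of Npy, with 6837 counts, took 7.66 ± 0.679% in congenic against 8.31 ± 0.737% in wild-type mice (SD, n = 8 per genotype), with a log2 difference of -0.12 (unadjusted p = 0.132, adjusted p = 1). The bins of smallest p in the other genes were bin 9 of Slc5a7 (log2 difference -0.17), bin 9 of Chat (-0.09), bin 7 of Vip (-0.24), bin 8 of Kcnc1 (0.05), bin 10 of Calb2 (-0.15), bin 2 of Pvalb (0.09) and bin 2 of Sst (-0.01), with unadjusted p values of 0.196 to 0.828.

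Whether markers of the same cells rose and fell together was examined over the 16 mice, as Pearson's r of log2 CPM with a permutation p (100000 draws, two-sided), adjusted over the 45 pairs of markers. All values of a mouse share its library and its dissection. Of the 45, 3 pairs passed, and they joined Chat, Slc18a3 and Nos1. High values were not particular to these pairs. Among 14078 genes outside the markers, r was above 0.8 for 471 with Chat, 393 with Slc18a3 and 487 with Nos1. The ribosomal protein score had a negative r with Chat, Slc18a3 and Nos1 over the 16 mice. It was -0.618 for Chat (-0.231 without mouse C2), -0.403 for Slc18a3 (-0.224) and -0.646 for Nos1 (-0.560). The part of that score in the pairs was not tested. Chat and Slc18a3, the genes of a single locus whose promoters are printed above, had r = 0.865 (p = 2e-05, adjusted p = 0.0009) and Spearman's rho = 0.888 (p = 2e-05). Their r was 0.848 without the 2 mice farthest from the median of Chat (C2 and W3), 0.838 in females and 0.872 in males. Chat and Nos1 had r = 0.851 (p = 4e-05, adjusted p = 0.0009) and rho = 0.853 (p = 7e-05), with r = 0.821 without those 2 mice, 0.756 in females and 0.888 in males. Slc18a3 and Nos1 had r = 0.797 (p = 0.0002, adjusted p = 0.003) and rho = 0.747 (p = 0.00135), with r = 0.696 without mice C1 and W3, 0.653 in females and 0.821 in males. Slc5a7, the third cholinergic gene, did not pass with either: r was 0.537 with Chat (p = 0.0312, adjusted p = 0.175; rho = 0.565, p = 0.0246), and 0.387 without mice C2 and W3.

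Other pairs within a class did not pass by Pearson's r. Sst and Nos1 had r = 0.421 (p = 0.104, adjusted p = 0.246) and Npy and Nos1 r = 0.501 (p = 0.0443, adjusted p = 0.215). Sst and Npy had r = 0.674 (p = 0.00563, adjusted p = 0.0633) and rho = 0.559 (p = 0.0268). Without mice W5 and C7, the highest and the lowest in Sst, r was 0.430, so the relation rests in part on those mice. Pvalb and Kcnc1 had r = 0.586 (p = 0.0215, adjusted p = 0.161) and rho = 0.779 (p = 0.00074, adjusted p = 0.0111), with r = 0.643 without mice C7 and W1. The rank relation passed where the linear one did not. Pvalb and Npy had the most negative value, r = -0.584 (p = 0.0309, adjusted p = 0.175; rho = -0.229, p = 0.391). It was -0.03 without mice C7 and W1 and -0.11 without mice C2 and C7. Mouse C7, left out of both, was the highest in Pvalb and the lowest in Npy, and the relation rests mostly on it.

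**Figure D4:**
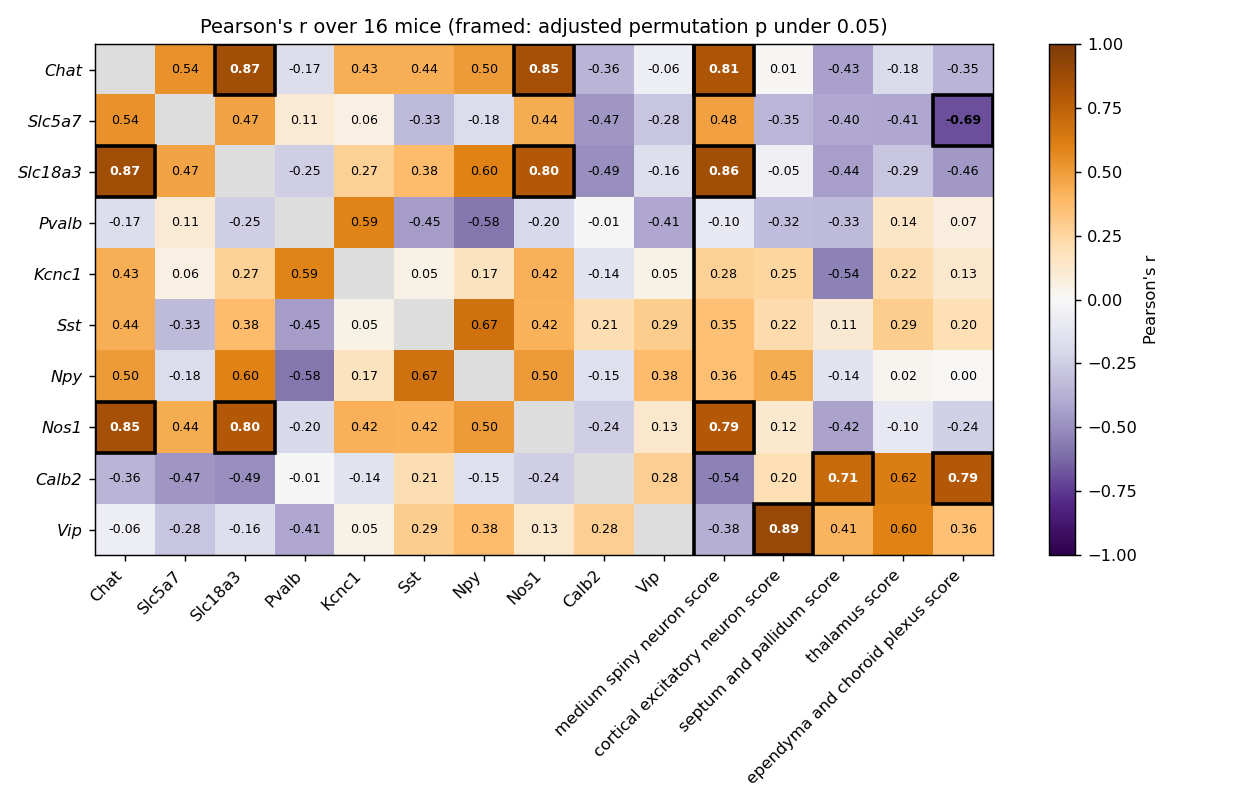
Pearson's r over the 16 mice between each pair of markers (left of the heavy line) and between each marker and the score of a list of markers of neighbouring cell types (right), orange for positive and purple for negative, with frames where the adjusted permutation p is under 0.05. The frames join Chat, Slc18a3 and Nos1 with each other and with the projection neuron score, Vip with the cortical score (0.89), Calb2 with the septum and pallidum and with the ependyma and choroid plexus scores, and Slc5a7 with the latter (-0.69).

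A striatal punch can take in neighbouring tissue, so each marker was set against 5 list scores, each the mean centred log2 CPM of a list (medium spiny neuron, cortical excitatory neuron, septum and pallidum, thalamus, ependyma and choroid plexus). Of 50 relations, 7 passed by the same test. Vip followed the cortical score with r = 0.893 (p = 1e-05, the smallest these permutations can give, adjusted p = 0.0005) and rho = 0.868 (p = 3e-05). Its r was 0.883 without mice W7 and W5, 0.910 in females and 0.912 in males. The mice highest in Vip (W7, W5 and C8) all had cortical scores above 0.6, and the lowest (C7, C6 and C2) all had negative ones. Calb2 followed the ependyma and choroid plexus score (Foxj1, Ttr, Folr1 and others) with r = 0.793 (p = 0.00029, adjusted p = 0.0029) and rho = 0.732 (p = 0.00172). Without mice C8 and C5 its r was 0.714, with 0.761 in females and 0.866 in males. With the septum and pallidum score Calb2 had r = 0.707 (p = 0.00219, adjusted p = 0.0183) and rho = 0.726 (p = 0.002), and r = 0.569 without the same 2 mice. With the thalamus score it had r = 0.622 and did not pass (p = 0.0099, adjusted p = 0.0619 by permutation). That relation passed on residuals from genotype and sex (r = 0.636, adjusted p = 0.0439) and with totals only (r = 0.653, adjusted p = 0.0429). Mouse C8, the highest in Calb2, also had the highest ependyma and choroid plexus score (0.57) and a septum and pallidum score of 0.51. Its thalamus score (0.31) and its cortical score (0.85) were the highest too. The summed ependyma and choroid plexus level was 31.4 to 54.2 CPM in congenic and 23.4 to 48.6 CPM in wild-type mice, with 0 of its 8 genes called by genotype and 0 at 0 counts in any mouse. The septum and pallidum sum was 51.3 to 140.5 CPM in congenic and 54.7 to 127 CPM in wild-type mice, with 0 of 9 genes called and 0 at 0 counts. The part of neighbouring tissue in the levels of Vip and Calb2 was not tested.

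Slc18a3, Chat and Nos1 followed the score of the projection neurons themselves, while Slc5a7 did not pass (r = 0.482, p = 0.0589, adjusted p = 0.245 by permutation; rho = 0.503, p = 0.0497). Slc18a3 had r = 0.860 with it (p = 2e-05, adjusted p = 0.0005; rho = 0.803, p = 0.00032; 0.788 without mice C1 and W3). Chat had r = 0.814 (p = 0.00015, adjusted p = 0.0025; rho = 0.900, p = 1e-05; 0.895 without mice C2 and W3). Nos1 had r = 0.794 (p = 0.00024, adjusted p = 0.0029; rho = 0.809, p = 0.00023; 0.744 without mice C2 and W8). These relations held in each sex, with r of 0.807 and 0.949 for Slc18a3, 0.863 and 0.904 for Chat, and 0.641 and 0.940 for Nos1 in females and males. Slc5a7 had r = -0.688 with the ependyma and choroid plexus score (p = 0.00303, adjusted p = 0.0216; rho = -0.582, p = 0.0197, adjusted p = 0.123, so that the rank relation did not pass; r = -0.571 without mice W3 and W5; -0.718 in females and -0.677 in males). Pvalb, Kcnc1, Sst and Npy passed with none of the 5 scores in this test. On residuals from genotype and sex, Npy passed with the cortical score (r = 0.655, adjusted p = 0.0331), where the plain r was 0.445 (adjusted p = 0.277). For Pvalb the values were between -0.33 and 0.14, and mouse C7, at 37.9 CPM of Pvalb, had a septum and pallidum score of -0.31. That score joins markers of both regions, and the part of pallidal tissue in the Pvalb level of mouse C7 was not tested.

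**Figure D5:**
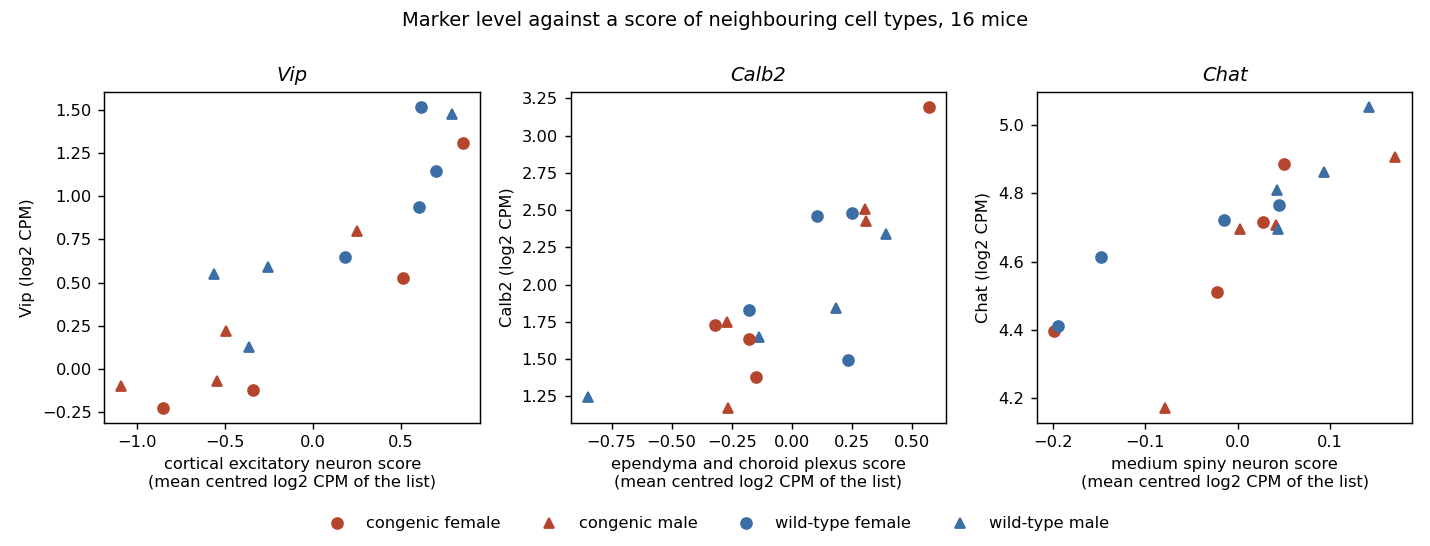
Log2 CPM after TMM scaling of Vip, Calb2 and Chat (vertical axes) against the score of a marker list (horizontal axes: cortical excitatory neuron, ependyma and choroid plexus, medium spiny neuron), a point per mouse, red for congenic and blue for wild-type, circles for females and triangles for males. All 3 rise from left to right (r = 0.893, 0.793 and 0.814), Calb2 of mouse C8 is the topmost point of its panel, and Chat of mouse C2 lies below the trend of the others.

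Genes outside the 10 markers whose pattern over the 16 mice was most like that of Chat, by r of log2 CPM among 14078 genes with a mean of at least 1 CPM, were Acly (0.952), Impdh1 (0.936), Usp5 (0.933), Upf1 (0.932) and Slc12a5 (0.930). For Pvalb they were Rassf4 (0.935), Rab37 (0.934), Vamp1 (0.924), Spp1 (0.919) and Flt3 (0.894), and without the 2 mice farthest from its median these values were 0.799 to 0.915. For Sst they were Actr1b (0.923), Cbr1 (0.902), Sult4a1 (0.881), Lrpap1 (0.880) and Ube2z (0.867). For Calb2 they were Pip5k1b (0.899), Resp18 (0.899), Tmem255a (0.868), Camk2d (0.865) and Gpx3 (0.861). The number of genes with r above 0.8 differed between markers: 487 for Nos1, 471 for Chat and 393 for Slc18a3, then 84 for Vip, 43 for Pvalb, 35 for Kcnc1, 26 for Npy, 23 each for Sst and Calb2, and 2 for Slc5a7.

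Other genes of the same cells and of their signalling, from lists of markers and receptors, gave 0 calls by genotype in either direction. Over all genes tested the median log2 fold change was 0.0015, so higher and lower genes were about equally many. The genes of all lists were measured in the same mice, so their signs are not independent and were not tested as a set. Of 11 further cholinergic interneuron genes (Lhx8, Isl1, Ache and others), 3 had a positive and 8 a negative log2 fold change, with a median of -0.03. The 3 of smallest p were Slc10a4, an orphan transporter of cholinergic vesicles, with -0.08 (SE 0.07), Isl1, a transcription factor of cholinergic neurons, with 0.05 (SE 0.04), and Slc17a8, the vesicular glutamate transporter of these interneurons, with -0.07 (SE 0.07). Of 10 fast-spiking genes 7 were negative, and Cox6a2, a cytochrome oxidase subunit, had 0.14 (SE 0.07), Crtac1 -0.08 (SE 0.07) and Kcnc4, a further Kv3 channel, -0.12 (SE 0.13). Of 8 somatostatin interneuron genes 6 were negative. Grin3a, an NMDA receptor subunit, averaged 16.9 ± 1.48 CPM (congenic) against 18.5 ± 1.80 CPM (wild-type; SD, n = 8 per genotype), with -0.13 (SE 0.06), Crhbp, a binding protein of corticotropin-releasing hormone, had -0.26 (SE 0.17) and Elfn1, a synaptic adhesion protein, -0.08 (SE 0.10). Of 10 calretinin and Vip interneuron genes 7 were negative, with Cck, a peptide gene also active in cortical neurons, at -0.37 (SE 0.29), Htr3a, a serotonin-gated channel, at -0.05 (SE 0.10) and Reln at -0.04 (SE 0.09).

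Receptors of the transmitters that these cells release were measured as well. Of 10 muscarinic and nicotinic acetylcholine receptor genes, 9 had a negative log2 fold change with a median of -0.03. Chrna4 averaged 14.6 ± 2.68 CPM (congenic) against 16.5 ± 0.975 CPM (wild-type; SD, n = 8 per genotype), with -0.18 (SE 0.09, unadjusted p = 0.0478 and adjusted p = 0.999 in edgeR). Chrm5 had -0.31 (SE 0.22) and Chrnb4 -0.27 (SE 0.22), both below 1.2 CPM in every mouse. Of 11 receptors of somatostatin, neuropeptide Y, vasoactive intestinal peptide and nitric oxide, 9 were negative with a median of -0.07, and the smallest p values belonged to Sstr1 with -0.24 (SE 0.13), Gucy1a3 with -0.07 (SE 0.05) and Sstr2 with -0.33 (SE 0.27). Of the enzymes of GABA synthesis, Gad1 had a log2 fold change of -0.03 (SE 0.06) and Gad2 of -0.02 (SE 0.05). Mouse C2 was the lowest congenic mouse in the summed level of the acetylcholine receptors (329 CPM). It was also the lowest congenic mouse in the cholinergic, fast-spiking, somatostatin, calretinin and Vip, and GABA lists, though not in the peptide receptors.

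Levels can be compared between genes only per length of transcript. Divided by the length of all exons of the gene in GENCODE for NCBIM37, the order over 16 mice was Sst (206 ± 18.4 CPM per kb), Npy (72.0 ± 5.66), Pvalb (16.2 ± 6.28), Kcnc1 (14.7 ± 1.15), Chat (9.21 ± 1.26), Slc5a7 (7.97 ± 0.623), Nos1 (3.34 ± 0.443), Calb2 (2.38 ± 1.07) and Vip (1.05 ± 0.446), each with its SD over n = 16. The ranges of the mice overlapped between Pvalb and Kcnc1, Chat and Slc5a7, Nos1 and Calb2, and Calb2 and Vip, and did not overlap between the other neighbours in this order. Genes with several transcripts, such as Nos1 with 9, are placed too low where the long form is not the one transcribed. Slc18a3 has no entry in this annotation and is left out of the order.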

How the data were processed

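The authors deposited whole-number counts per gene and per exon bin for each lane, per the file headers. The submitters' processing notes name HTSeq 0.6.1p1, FastQC 0.10.1, edgeR 3.8.6 and limma 3.22.7 without saying what each did, and both mm9 and mm10. The aligner, the annotation of the gene table and the strand setting are not given in the sources used here. Per the labels the reads were 50 bp single-end in one text and 100 bp paired-end in another. Exon bins rebuilt from GENCODE on NCBIM37 (mm9) were the same in number as the deposited bins for all 9 markers in it, so coordinates use that build.

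The 3 lanes of a mouse were summed. Between lanes of a mouse, chi-square per degree of freedom was 1.89 to 1.94 over genes with 30 or more counts. CPM is the count of a gene per mouse on the counts-per-million scale of its gene total. R 4.3.3 with edgeR 4.0.16, limma 3.58.1 and DESeq2 1.42.0 and Python 3.11.15 were used. Genes passed edgeR's filterByExpr (count 10, total 15) and were scaled by TMM and tested with robust quasi-likelihood fits for genotype and sex. All tests were two-sided, a call needed an adjusted p under 0.05, and intervals are at 95%. Log2 CPM used a prior count of 2. The scripts were tested on simulated data. The labels do not say how litters fell over the groups, and p values measure the spread between these mice.

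The alternatives were another scaling, no filter, DESeq2, limma-voom, no covariate, marker score covariates, single lanes, and each mouse left out. The 10 markers and all lists were chosen with earlier results of these data known. The rule for other genes named the 3 of smallest genotype p of each pathway list where values are given (lists of neighbouring tissue are given by counts and sums), the 5 most like Chat, Pvalb, Sst and Calb2, and the exon bin of smallest p of each marker. One gene of the pathway lists is not reported here.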

Additional observations from a re-analysis of the deposited data

Results flagged for a closer look

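Each marker was examined in each genotype for a mouse far from the other 7 by Dixon's test at the 95% level, which made 20 groups, and chance alone flags about 1 in 20. It marked 4 values, in 3 mice. Pvalb in congenic female C7 was 37.9 CPM, where the next congenic mouse had 19.2 CPM. In the same mouse Npy was 31.6 CPM, where the next lowest congenic value was 38.4 CPM, and its cortical score of -0.85 was the second lowest of the 16 mice. Calb2 in congenic female C8 was 9.43 CPM against 5.62 CPM in the next congenic mouse. That gap was 0.5261 of the congenic range, barely above the critical value of 0.526, where the gap of Pvalb in C7 was 0.740. Nos1 in wild-type mouse W8, recorded as female with 2.73 CPM of Xist, was 29.8 CPM against 36.5 CPM in the next lowest wild-type mouse. Its score for medium spiny neurons was -0.19, where the wild-type range was -0.19 to 0.14.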

How the results depend on the processing

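No paired analysis was possible because the labels pair no mice and replicate numbers only follow the order of listing. In all alternatives run, 0 of the 10 markers were called by genotype, within a sex, for the interaction or for exon use (the model with no covariate was fitted for genotype and sex only). The fits with a ribosomal protein score and those without mice C2 and C7 were added after seeing the data. By genotype 0 genes passed in every fit, and within females 0 except 17 without mouse C8. Genes called by sex numbered 23, 259 with DESeq2, 286 with the ribosomal score, 93 without mice C2 and C7, 13 with the cortical or the septum and pallidum score or in lane 4 alone, and 12 to 76 with 1 mouse left out. Among them 1 marker passed with the ribosomal score (Nos1, log2 difference 0.267, adjusted p = 0.0136) and 0 in every other fit. For exon use 0 or 1 gene passed in each fit. Pairs of markers that passed in correlation numbered 3 by Pearson's r, on residuals and with totals only, 4 by Spearman's rho (Pvalb with Kcnc1 added), and 5 without mice C2 and C7 (Chat with Slc5a7 added too). Pairs of a marker and a tissue score numbered 7, 6 by rho (Slc5a7 with ependyma and choroid plexus lost), and 9 on residuals, with totals only and without both mice. The added pairs differed. Residuals added Npy with the cortical and Calb2 with the thalamus score, and totals only added Calb2 and Vip with the thalamus score. Without both mice, Chat (r = -0.761) and Slc18a3 (r = -0.713) with ependyma and choroid plexus were added. Of 300 alternative genotype log2 fold changes, 14 had the other sign, in 6 markers, none called: Slc5a7 in lane 5 alone (0.000596), Slc18a3 in lane 4 alone (0.0734), with the ribosomal score (0.0382) and without both mice (0.0326), Pvalb with the cortical score (-0.0480) and without both mice (-0.0208), Kcnc1 with the ribosomal score (0.0160) and without both mice (0.00115), and Npy without both mice (0.00179). Leaving out 1 mouse moved Slc18a3 between -0.104 and 0.00953, Pvalb between -0.0537 and 0.278, Kcnc1 between -0.0522 and 0.0129 and Calb2 between -0.116 and 0.244. Of 290 values for sex, 20 had the other sign, in 5 markers: Slc5a7 with totals only (-0.0195), the cortical score (-0.0550), the septum and pallidum score (-0.0183) and lane 3 alone (-0.0157), Pvalb (0.0658) and Kcnc1 (0.0219) without both mice, Kcnc1 with the ribosomal score (0.0218), Calb2 with the cortical (0.00103) and the septum and pallidum score (0.0516), and Vip with the cortical score (0.198). Leaving out 1 mouse moved the sex difference of Slc5a7 between -0.0255 and 0.0387, Pvalb between -0.294 and 0.0371, Kcnc1 between -0.0496 and 0.0119 and Calb2 between -0.313 and 0.0428. The cause was not tested. Counts were lowest for Vip, and Calb2, Pvalb and Vip had the highest fitted dispersions of the 10 markers.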
